A study of Bos taurus with 2 samples.

Results

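Aquaporins are membrane channels that let water cross the cell membrane along an osmotic gradient, and the aquaglyceroporins among them also pass glycerol. In the testis and the excurrent ducts they are known for the movement of fluid across the seminiferous epithelium, for the loss of cell volume when round spermatids elongate, and for the volume control of spermatozoa. The aquaporins described here are the 8 genes AQP1, AQP3, AQP4, AQP5, AQP7, AQP8, AQP9 and AQP11, taken as all non-control probes that carry these names on the array. They have 19 probes in 20 spots, of 51279 probes for 32428 gene names.

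The samples were testes of adult crossbred bulls (Holstein Friesian crosses with 50 to 75% exotic inheritance) and of Zebu bulls of the Tharparkar breed, all aged 24 months. Each group is 1 pool, made from equal amounts of RNA of 3 bulls. The pools were labelled with Cy3 and measured on neighbouring arrays of a single slide, 1 array a group. With 1 array per group there is no measure of the spread between animals, so the values below describe these 2 pools and no difference has a replicate check. The number of arrays limits the precision. In whole tissue, fewer cells of a type and less RNA per cell cannot be told apart.

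Each value is a normalized log2 signal, where 0 is the 75th percentile of the array (a processed signal of 1176 for crossbred, 1233 for Zebu). A difference is the crossbred value less the Zebu value, also in log2. The error beside a difference is the scanner software's own estimate for the spots behind it. The spread between repeat spots was taken from 5960 probes with repeats that were well above background, as defined below, on both arrays. Its SD was 0.29 for crossbred and 0.18 for Zebu, which gives 0.34 for a difference. Dimmer probes did not enter this SD. Both errors cover spotting and scanning and not animals, pooling or labelling. A probe is called well above background where the scanner software marked all its spots so, and the lowest such value was -5.78 for crossbred and -5.94 for Zebu. Levels are compared within a probe, never between probes. The summed signals of marker lists do add different probes, so bright probes weigh most in them. No array file gives exons or UTRs, so positions are printed without them.

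The probes are 60 bases long. The following 5 are shown because the results on AQP7, AQP8, AQP5 and AQP3 refer to them, and each has at least 1 forward reading frame without a stop codon. They are printed 5′ to 3′ in the sense of the transcript, with positions on HGSC Btau_3.1 as the array files give them.
AQP7 probe 1, chr8:79260384-79260443, minus strand: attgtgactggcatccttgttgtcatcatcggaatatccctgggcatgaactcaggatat
AQP7 probe 2, chr8:79284103-79284162, minus strand: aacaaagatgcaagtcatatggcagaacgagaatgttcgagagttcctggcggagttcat
AQP8 probe 2, chr25:24140385-24140444, plus strand: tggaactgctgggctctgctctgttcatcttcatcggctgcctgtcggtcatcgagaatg
AQP5 probe 2, chr5:32919289-32920340, minus strand: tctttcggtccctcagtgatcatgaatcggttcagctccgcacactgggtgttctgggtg
AQP3 probe 2, chr8:79339104-79339502, minus strand: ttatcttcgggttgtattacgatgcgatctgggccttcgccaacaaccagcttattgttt
The positions of AQP5 probe 2 span 1052 bases and those of AQP3 probe 2 span 399 bases for a probe of 60, so by these positions neither probe is continuous in the genome.

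For 3 further probes only the last 30 bases are shown, because these letters hold the motif or run described. Capitals mark the letters AATAAA, the usual polyadenylation signal, in the probes of AQP5 and AQP1.
AQP5 probe 1, chr5:32918634-32918693, minus strand: aggtgagggcttcccAATAAAccactgaca
AQP1 probe 1, chr4:68047877-68047936, minus strand: ggaatttcattatatgttaagaaAATAAAc
AQP4 probe 3, chr24:30857450-30857509, plus strand: agggtCTTCCCTGGTGGCTCAGatgataaa
AATAAA was found on the sense strand of 2 of the 19 member probes and of 8.35% of all 51282 probes, and its reverse complement TTTATT in none of the member probes and in 3.30% of all probes. In the AQP4 probe the capitals mark a run that resembles the start of a short interspersed repeat of ruminants. No repeat annotation was used here. None of the 26 aquaporin probes examined shared a run of 20 letters with a probe of another gene name on either strand, against 5.69% of all probes. The run in capitals is shorter than 20 letters, so this search could not find it by itself. Only probes of the array were compared, and binding of other transcripts was not tested.

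At least 1 probe was well above background on both arrays for 7 of the 8 aquaporins, which for AQP4 was 1 of 6 probes, and AQP9 had no such probe. AQP7 was higher and AQP5 was lower in crossbred testis by more than 1.5, and the probes that stand for the other 5 detected genes differed by 0.59 or less in size. Of these, the AQP8 probe depended on its place on the array, with -0.88 once the local median was subtracted. Over all 24751 gene names that were detected, 7.12% were called higher and 2.92% lower by this rule, so with 7 members a single gene in either direction is too few to set against these shares. By probe, 1 of 11 detected was higher and 1 lower, where 6.14% and 2.99% of the 39804 detected probes were. At a threshold of 1 the same counts of 1 and 1 held, and the shares over all gene names were 12.8% and 8.87%. The median over the 7 detected members was -0.16, against -0.05 over all detected gene names.

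**Figure D1:**
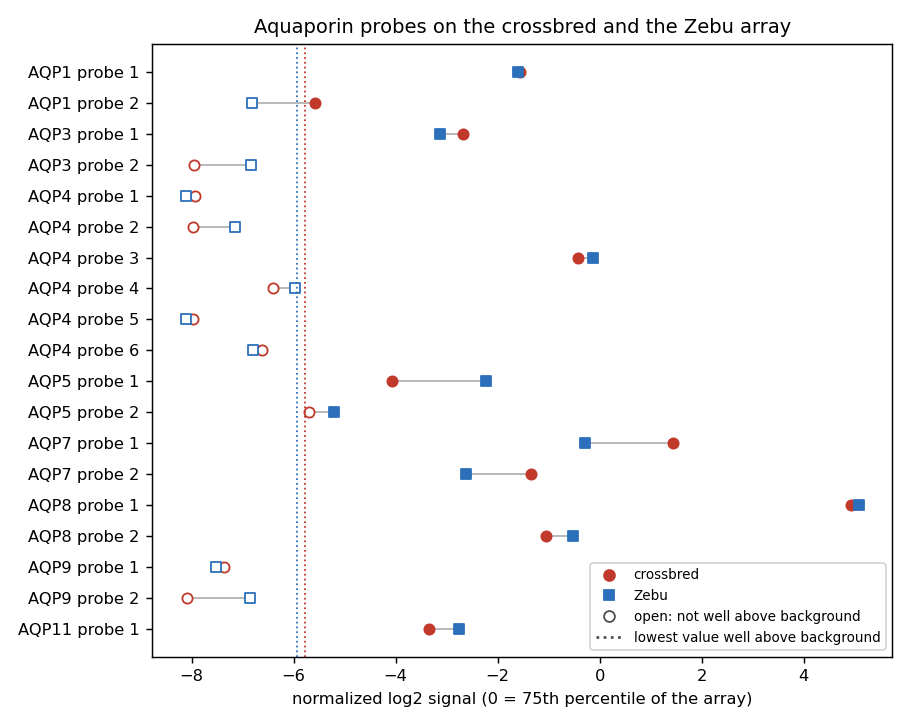
Normalized log2 signal of the 19 aquaporin probes on the crossbred array (red circles) and the Zebu array (blue squares), with open symbols where the probe was not well above background and dotted lines at the lowest value well above background on each array. AQP7 lies to the right and AQP5 to the left on the crossbred array, both AQP9 probes and 5 of 6 AQP4 probes lie at the background, and levels can be compared within a probe only.

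AQP7 is an aquaglyceroporin known from spermatids, the spermatozoon tail and fat cells. Its probe 1 gave 1.44 for crossbred and -0.28 for Zebu, from processed signals of 3197 and 1015. The difference was 1.72 ± 0.20 (scanner error), or 3.30-fold, and 5.39% of the detected gene names were at least as far in the same direction. Probe 2, which lies 23719 bases upstream of probe 1 on the genome, had -1.35 and -2.62, a difference of 1.27 ± 0.21, below the threshold of 1.5. Another probe carries the name TC437925 and is described on the array as aquaporin 7. It lies on chromosome 8 from 79259052 to 79259111 on the same strand, downstream of probe 1, and was picked out after the values were seen. It had -3.73 and -5.12, a difference of 1.38 ± 0.21 over 2 spots, which was 0.60 after normexp background correction, an alternative that adds an offset to every signal. All 3 probes were therefore brighter on the crossbred array, by more than the SD between spots, and 1 of the 3 passed the threshold. The mean over both probes that carry the gene name was 1.498, just under the threshold, so AQP7 is not called higher when its probes are averaged.

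AQP3, the other aquaglyceroporin detected, is known from the plasma membrane of epithelia and of spermatozoa. It is the neighbour of AQP7 on chromosome 8 in the RefSeq gene table of ARS-UCD2.0. Its probe 1 gave -2.68 for crossbred and -3.13 for Zebu, a difference of 0.45 ± 0.21, which exceeds the SD between spots but not the threshold. Its probe 2 was not well above background on either array. The pair of neighbouring genes thus gave differences of different size, 1.72 for AQP7 and 0.45 for AQP3.

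AQP9 passes glycerol, urea and other small solutes and is known from the Leydig cells of some species, from the efferent ducts and epididymis and from the liver. Its 2 probes, on chromosome 10, were not well above background on either array, with processed signals of 7.10 and 4.32 for crossbred and 6.66 and 10.7 for Zebu. No difference is given for it. A level of AQP9 below the background could not be seen here.

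Of the channels that mainly pass water, AQP5 is known from glands, airway and cornea. Its probe 1 gave -4.07 for crossbred and -2.22 for Zebu, from processed signals of 70.0 and 263.8. The difference was -1.85 ± 0.22, or 3.59-fold lower, and 1.49% of the detected gene names were at least as far in the same direction. Probe 2, whose positions begin 655 bases upstream on the genome, passed the background mark for Zebu alone, with -5.70 and -5.20. Its bound, 1.41-fold lower in crossbred testis, is the same as its measured difference of -0.50. That difference was -0.12 after normexp background correction and -0.21 with the local median subtracted. Both probes thus were dimmer on the crossbred array, and the size for probe 2 depended on the processing. After normexp background correction probe 1 differed by -1.21 and was no longer called, and the mean of both probes, with the bound for probe 2, was -1.17.

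**Figure D2:**
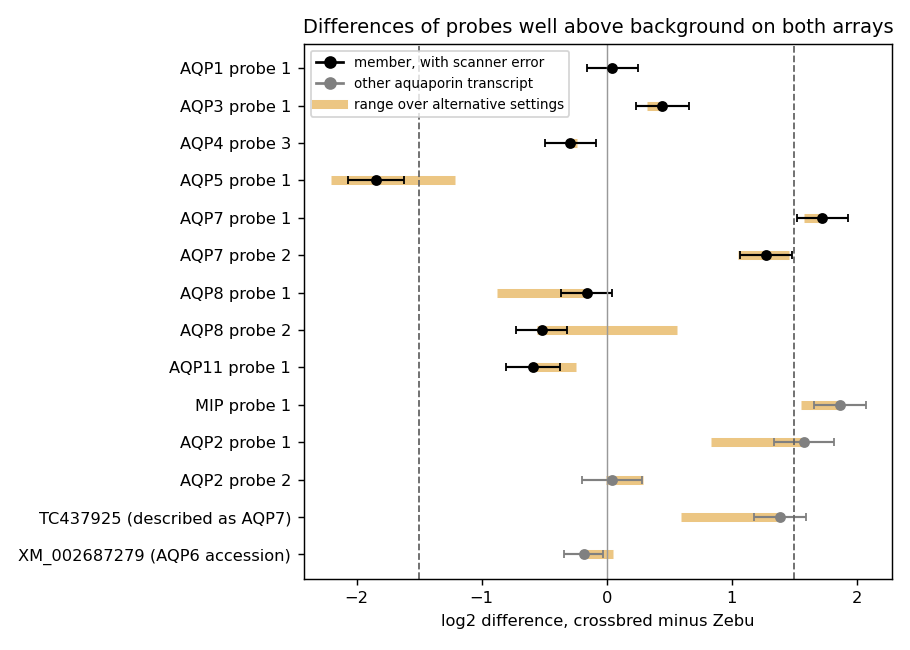
Log2 difference, crossbred minus Zebu, of the aquaporin probes well above background on both arrays, black for the 8 genes and grey for other aquaporin transcripts, with bars for the scanner error, broad bands for the range over the alternative settings and dashed lines at the threshold of 1.5. AQP7 probe 1 stayed between 1.58 and 1.72 and AQP5 probe 1 between -2.21 and -1.21, while AQP8 probe 2 crossed 0.

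AQP1 is a water channel of red blood cells, of the endothelium of many vessels and of the efferent ducts. Its probe 1, which holds the letters AATAAA near its end, gave -1.56 for crossbred and -1.61 for Zebu, a difference of 0.05 ± 0.21. Whether these letters act as a polyadenylation signal was not tested. This is less than the SD between spots. Probe 2, 1821 bases upstream, was well above background on the crossbred array only, with -5.59 and -6.81. Its bound was 1.27-fold higher there, or 0.35 in log2. The measured difference of 1.22 was 0.17 after normexp background correction, which is less than that bound. On the Zebu array its own value lay below the lowest value well above background.

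AQP8 passes water and is also known to pass ammonia and hydrogen peroxide, and it is found in germ cells and Sertoli cells of the testis of several mammals. Its probe 1 gave 4.93 for crossbred and 5.08 for Zebu, with processed signals of 35730 and 41788. The difference of -0.16 ± 0.20 was less than the SD between spots. Probe 2 had -1.05 and -0.53, a difference of -0.52 ± 0.20. Its spot lies in a patch of the crossbred array, rows 54 to 99 and columns 35 to 46, where the median difference of 544 spots was -1.37. It was the only aquaporin spot in that patch, and none lay in a bright patch marked elsewhere on that array. The 18 spots nearest to probe 2 had a median difference of -1.08 over the 8 of them that were well above background on an array, and those nearest to probe 1 had 0.72. With these local medians subtracted, probe 2 differed by 0.56 and probe 1 by -0.88, so neither sign nor size of a change in AQP8 can be read from these probes.

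**Figure D3:**
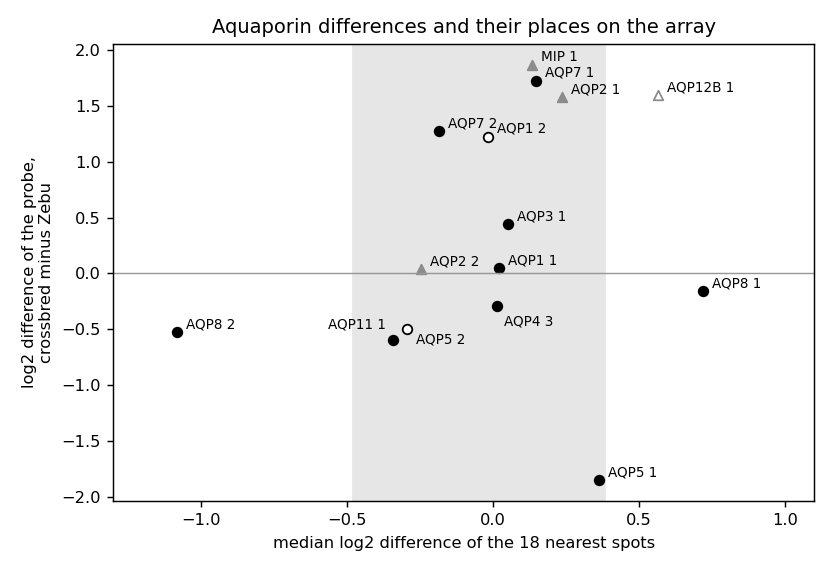
Log2 difference of each detected aquaporin probe (vertical) against the median log2 difference of the 18 spots nearest to it (horizontal), with circles for the 8 genes, triangles for other aquaporins, open symbols where 1 array was not well above background with vertical positions as measured, and a grey band from -0.48 to 0.38, the range from the 5th to the 95th percentile over all spots. Both AQP8 probes lie outside the band at -1.08 and 0.72, and so does AQP12B at 0.56. The called probes of AQP7 and AQP5 lie inside it at 0.15 and 0.36, with AQP5 close to the upper edge.

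AQP4 is the main water channel of astrocytes, where it is anchored at the end feet, and is known from Sertoli cells and muscle too. Only 1 of its 6 probes, all on chromosome 24, was well above background, on both arrays. This probe 3 gave -0.43 for crossbred and -0.14 for Zebu, a difference of -0.29 ± 0.20, less than the SD between spots. The other 5 probes lay on both sides of it, from 30855248 to 30860080, and had processed signals from 4.67 to 13.9 for crossbred and from 4.43 to 19.6 for Zebu. The detected probe is the one whose last bases hold the run shown above in capitals, and whether that run bears on its signal was not tested. Its value is therefore given for the probe and not for AQP4. Without it the median over the detected members was -0.06.

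AQP11 lies in the membranes of the endoplasmic reticulum, and is known from the kidney and from elongated spermatids and their residual bodies. Its single probe, on chromosome 29 from 19333416 to 19333475, gave -3.35 for crossbred and -2.76 for Zebu. The difference was -0.59 ± 0.22, larger than the SD between spots and below the threshold, and it was -0.29 after normexp background correction. At a linear fold of 1.5, AQP11 would be counted as lower beside AQP5.

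**Figure D4:**
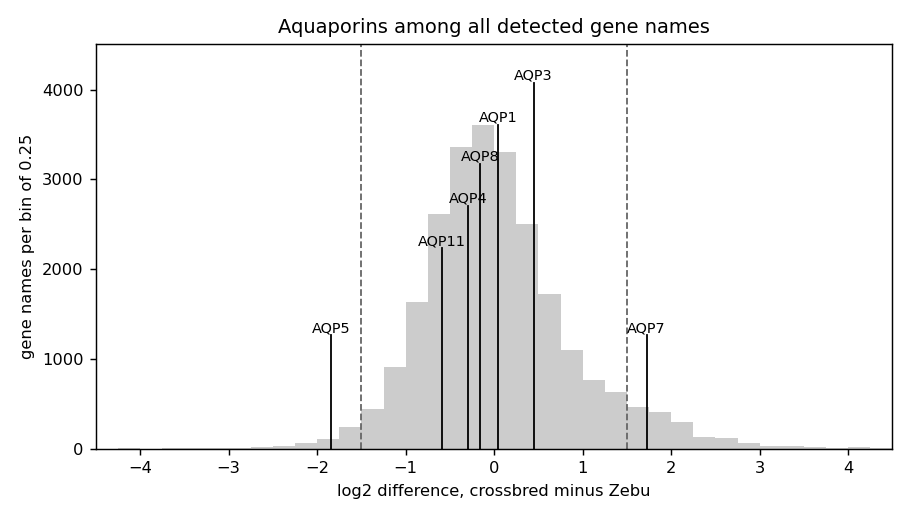
Number of gene names (vertical, bins of 0.25) by log2 difference, crossbred minus Zebu, among the 24751 detected gene names, with a labelled line at each of the 7 detected aquaporins and dashed lines at the threshold of 1.5 in either direction; the axis leaves out the far tails. AQP5 at -1.85 and AQP7 at 1.72 lie in the tails, and the other 5 lie between -0.59 and 0.45.

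Of 7 further aquaporin names looked for, 4 were on the array. Of these, 3 were detected and all 3 were called higher, with a median of 1.58, beside 7.12% higher over all detected gene names. After normexp background correction 1 was called higher. So few genes cannot be set against that share. MIP, the aquaporin of the lens fibre cell, gave -0.73 for crossbred and -2.59 for Zebu by its single probe, a difference of 1.87 ± 0.21. Over the alternative settings this difference stayed between 1.56 and 1.87. AQP2, the vasopressin-regulated channel of the kidney collecting duct, differed by 1.58 ± 0.24 in probe 1 and by 0.04 ± 0.24 in probe 2, so its probes did not give the same result, and probe 1 differed by 0.84 after normexp background correction. AQP12B was well above background on the crossbred array only, with -5.70 and -7.30, and was at least 1.18-fold higher there. Its measured difference of 1.60 was 0.42 after normexp background correction and 1.03 with the local median of 0.56 subtracted, both under the threshold. The probe named AQP6 was not well above background on either array, while a probe of XM_002687279, an accession listed with the AQP6 probe and picked out after the values were seen, differed by -0.18 ± 0.15. AQP6, AQP5 and AQP2 follow each other on chromosome 5 in the RefSeq gene table. The named probes of the 3 genes lay from 32908358 to 32940936, and gave a lower AQP5, an AQP2 that was higher in 1 of 2 probes and an undetected AQP6.

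Genes that work with the aquaporins were read from 3 lists. All 17 genes of glycerol metabolism, which handles the solute that AQP7, AQP3 and AQP9 pass, were well above background on both arrays, 2 were called higher and none lower, and the median was 0.01. LIPE, the hormone-sensitive lipase, differed by 2.63 with a median of 1.91 over its 2 other probes, and GPD1L, a glycerol-3-phosphate dehydrogenase, by 2.69 with 0.18 in a further probe. These 2 of 17 stand beside 7.12% higher over all gene names. Among the glycerol kinases, named after the values were seen and all under the threshold, GK2 differed by 1.41 with a median of 0.88 over its 2 other probes, GK5 by -1.44 with -1.60 in its other probe, and GK by 0.56 with -0.72.

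Of the 42 genes of fluid and cell volume transport on the array, 37 were detected, 4 were called higher and 1 lower, and the median was 0.16. These shares stand beside 7.12% and 2.92% over all gene names, and after normexp background correction 3 were higher and 0 lower. SLC6A12, which carries the osmolyte betaine, differed by 2.78 with a median of 0.66 over its 2 other probes. SLC6A6, the taurine transporter, differed by 2.09, LRRC8B, a subunit of the volume-regulated anion channel, by 2.18, and the sodium bicarbonate cotransporter SLC4A4 by 1.71 with a median of 1.58 over its 2 other probes. SLC5A3, which carries the osmolyte myo-inositol, differed by -2.11 with -0.24 in its other probe. Among the 24 genes of aquaporin anchoring and sorting on the array, 22 were detected, none was called, and the median was -0.35 with a range from -1.40 to 1.47. KCNJ10, the potassium channel that lies beside AQP4 in astrocytes and is named here for that, was not well above background.

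Markers of the cell types that carry aquaporins were read beside them. All 17 spermatid markers on the array passed the background mark in either pool and were brighter for crossbred. Of them, 11 were called higher by 1.5 or more, beside 7.12% over all detected gene names. The median was 1.64, and the summed signal was 1027 against 469 in units of the array's 75th percentile. The spermatid markers moved with AQP7, and their part in the value of AQP7 was not tested. Most of the markers called higher, such as TNP2, ODF1 and SPEM1, were already reported as upregulated by the study from these same arrays. The list was chosen with earlier results of these data known, so its count and median are no independent support. AQP11, also known from germ cells, had -0.59. The 10 spermatocyte markers had a median of 0.63. Among the somatic cells, the median was -0.74 over 12 detected Sertoli markers, with INHBB and KITLG among those not well above background, -0.51 over 10 Leydig markers and -0.77 over 9 peritubular and smooth muscle markers. The summed signal was 167.1 against 255.8 for Sertoli, 99.7 against 146 for Leydig and 42.6 against 72.9 for peritubular and smooth muscle markers. CLU, with 6.6 for crossbred and 7.1 for Zebu, weighed most in the Sertoli sums. INSL3, with 6.3 and 6.7, weighed most in the Leydig sums. Both were named after the values were seen. Called lower were 1 Sertoli marker (DHH), 2 Leydig markers (CYP17A1 and HSD3B1) and none of the peritubular and smooth muscle markers. The study had reported DHH, CYP17A1 and HSD3B1 as downregulated from these same arrays, so they are no independent support. Over all detected gene names 2.92% were called lower. No marker of these lists was called higher. By sign 10 of 12, 8 of 10 and 9 of 9 were below 0, as AQP5 was, with values up to 0.93 in the Sertoli and Leydig lists. AQP5 is not assigned here to any of these cell types, so a shared sign does not place it in them. The median over all detected gene names was also below 0, at -0.05. The part of these markers' cell types in the value of AQP5 was not tested. The 9 detected spermatogonia markers had a median of -0.71.

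Of the cell types that carry AQP1, the 11 endothelial markers had a median of 0.02 and summed signals of 7.14 against 4.37. CLDN5, with 2.22 for crossbred and 0.89 for Zebu, weighed most in these sums, and was named after the values were seen. Of the red blood cell markers, 5 of 10 were well above background and 5 were not, namely ALAS2, SLC4A1, HBB, RHAG and KLF1, and the detected ones ranged from -2.15 to 3.19. Of the 11 markers of epididymis and efferent duct on the array, CRISP1, ADAM28 and RNASE10 were not well above background, nor was the probe that stands for ESR1, of which 1 other probe was detected. The median over the other 7 was 0.38. Of these 7, 2 were called higher and 0 lower, beside 7.12% and 2.92% over all detected gene names. GPX5 was at least 11.1-fold higher in crossbred testis, with a spot in the same patch as AQP8 probe 2, where the median difference was -1.37. LCN6, outside the marked patches, was at least 3.64-fold higher. The count of 2 held with the marked spots left out and was 1 after normexp background correction. The 9 macrophage markers had a median of 0.02 and the 6 detected fat cell markers 0.03, with ADIPOQ not well above background.

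**Figure D5:**
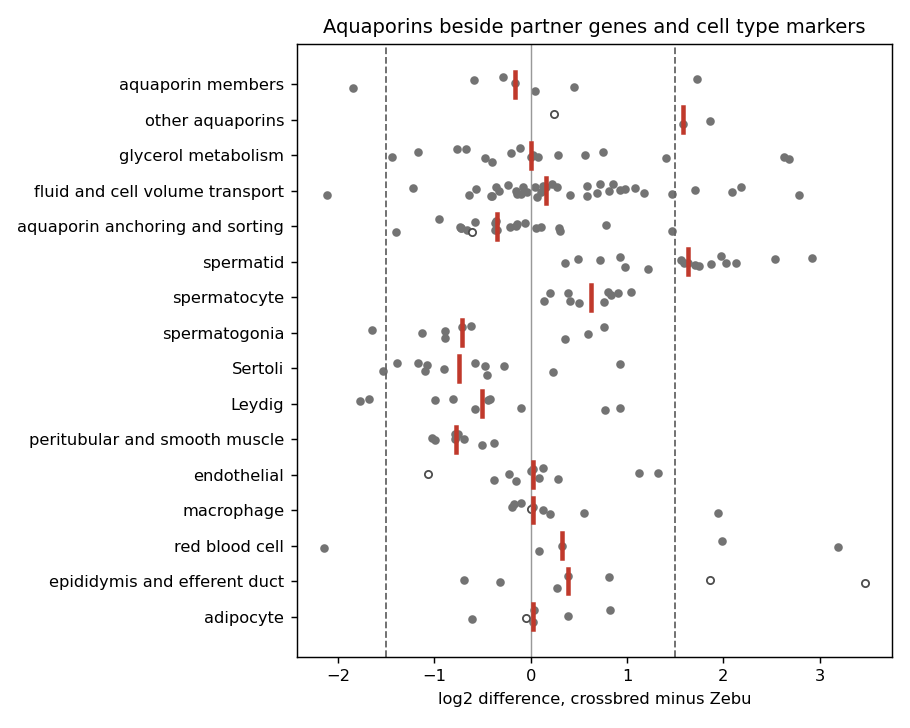
Log2 difference, crossbred minus Zebu, of the genes of each list (grey points, open where given as a bound because 1 array was not well above background), with the list median as a red line and dashed lines at the threshold of 1.5; the vertical scatter within a row has no meaning. The aquaporin median lies at -0.16 with AQP7 and AQP5 apart from the rest, the spermatid median at 1.64 and the peritubular and smooth muscle median at -0.77.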

How the data were processed

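Testicular RNA of crossbred and Zebu bulls was measured on Agilent bovine arrays, with 1 pooled sample and 1 array per group. For each spot the authors deposited the processed intensity of Feature Extraction 11.5, which per the file headers was detrended over each array with surrogate values enabled for dim spots, and which was not scaled between the arrays, together with the raw mean intensity of the spot, the median intensity of its local background and an error estimate of the processed intensity. They also deposited log2 values from GeneSpring GX 12.6, shifted by the 75th percentile of each array (column medians -3.00 for crossbred and -3.01 for Zebu). Across probes these followed the scanner values in scale, centring and direction, with a Pearson correlation of 1.00 on either array, though single probes deviated by up to 10.6.

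Control spots were removed, as were 13 spots marked as outliers by the scanner software. None was saturated. Spots of the same probe were averaged in log2, and each array's 75th percentile of these probe values was taken off. A probe counted as well above background where the scanner software marked every one of its spots so. The probe whose 2 normalized values had the highest mean stood for its gene. A gene was called when its measured log2 difference reached 1.5 in either direction and its brighter array passed the background mark. This is the threshold of the study, and a linear fold of 1.5 is among the alternatives. Where the dim array was not above background, a bound was computed against the higher of the dim value and the lowest value well above background on that array, and bounds entered list medians. With 1 array per group no test was possible and no p-value is given.

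The genes named are the 8 members, the other aquaporin names on the array, and at most 6 called genes of each list of partner genes. TC437925, XM_002687279, KCNJ10, the glycerol kinases, and the marker genes printed were named outside this rule. The members and lists were chosen with earlier results of these data known. The lists held glycerol metabolism, fluid and cell volume transport, aquaporin anchoring and sorting, and markers of spermatids, spermatocytes, spermatogonia, Sertoli, Leydig, peritubular and smooth muscle, endothelial, macrophage, red blood, epididymis and efferent duct, and fat cells. Alternatives tried were normexp correction (offset 50), other scalings, the authors' log2 values, other thresholds and filters, all probes of a gene, and marked spots left out. The steps were tested on simulated data. The software was R 4.3.3 (limma 3.58.1) and Python 3.11.15 (scipy 1.17.1, pandas 2.3.3, numpy 2.4.6). The value of 1 marker gene is not reported here. The real-time PCR of the study was not analysed here.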

Additional observations from a re-analysis of the deposited data

How the results depend on the processing

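The numbers of members called higher and lower stayed at 1 and 1 under the other scalings, the authors' log2 values, the filters on dim probes, a threshold of 1, without the marked spots and with the local median subtracted, an alternative chosen after seeing the data. After normexp background correction 0 members were lower. With all probes of a gene averaged 0 were higher and 0 lower. At a linear fold of 1.5, 2 were lower. The median over members lay between -0.29 and -0.06 in the alternatives run. The SD between spots is that of a single probe and gives no spread for this median. Over all gene names, normexp gave 1030 higher and 169 lower in place of 1762 and 722, and the cause was not tested. Of 118 probe values under the alternatives, 108 moved by less than the SD between spots and no called value changed sign. The 10 that moved further all came from normexp or from subtracting the local median. Scalings that shift a whole array, the authors' log2 values and leaving out marked spots each moved the probes together by a small amount. These settings therefore could not test single probes, and many of the 108 values come from them. No paired analysis was possible because each group has 1 array. Scanner error does not cover animals, and dim probes are known only as bounds.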
